A study of Mus musculus with 3 samples.

Results

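The Jun, Fos and small Maf genes encode basic leucine zipper (bZIP) transcription factors. Their 10 members here are Jun, Junb and Jund, Fos, Fosb, Fosl1 and Fosl2, and Maff, Mafg and Mafk. They were taken as every probe set whose platform annotation gives one of these symbols as its only gene symbol, which found all 10 genes with 15 probe sets, of 18193 genes with a single symbol and 45101 probe sets in all. The family was defined by name, but Maff was picked for its high signal on the siENG array and Junb was picked for its high signal with BMP-2, so those ratios are described and support nothing. The series holds 3 arrays of PDL-L2, an immortalised line from mouse periodontal ligament. The conditions were an siRNA pool against endoglin (siENG) with rhBMP-2 at 250 ng/ml, a control siRNA pool (siCont) with the same rhBMP-2, and siCont with vehicle. All cells received an siRNA pool 48 h before treatment, were then kept for 12 h in differentiation medium with ascorbic acid and beta-glycerophosphate, and came from the same single line. Each condition has 1 array, so the differences lack any check by replicates and no p-value is given. No cells with siENG and vehicle are among the arrays, so the BMP-2 response under knockdown cannot be formed.

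AP-1 is a dimer of a Jun protein with a Fos protein or with another Jun protein. Jun and Fos are classic immediate-early genes, transcribed within minutes of a growth factor or stress signal through MAP kinases and serum response factor. Junb and Jund often act less strongly than Jun or against it, and Fosl1 and Fosl2 (Fra-1 and Fra-2) lack the strong activation domain of Fos but shape bone, where Fos family proteins act in osteoblasts and osteoclasts. The small Maf proteins have a bZIP domain and no activation domain of their own. As pairs with each other they repress, and as partners of the CNC factors such as Nrf2 they occupy antioxidant and Maf recognition elements. Junb is a known early target of TGF-β family signals, to which BMP-2 belongs.

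Stretches of regulatory sequence are shown because they belong to the genes on which the results turn (Maff and Junb) and to the remaining small Maf genes. Each is the 250 bases before an annotated transcription start, from RefSeq, build GRCm38.p6. RefSeq sequence was matched for 9 of the 10 genes, with 11 starts, of which Maff has 3. Capitals mark matches, on either strand, to any of 7 motifs. These are the TRE bound by AP-1 (TGAGTCA), the CRE (TGACGTCA), the core of the antioxidant response element or ARE (TGACNNNGC), the CArG box of serum response factor, the Smad box (CAGAC), the GC-rich Smad site (GGCGCC), and the core of the hypoxia response element or HRE (ACGTG). A TRE followed by GC also matches the ARE core, and CACGTG holds the HRE core on both strands.
Maff start 1, chr15:79346371-79346620, plus strand: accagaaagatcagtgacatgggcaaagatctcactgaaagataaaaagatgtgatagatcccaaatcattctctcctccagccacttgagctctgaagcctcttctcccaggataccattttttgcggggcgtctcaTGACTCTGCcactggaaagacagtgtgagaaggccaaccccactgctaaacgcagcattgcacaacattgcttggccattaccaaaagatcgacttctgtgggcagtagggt
Maff start 2, chr15:79347270-79347519, plus strand: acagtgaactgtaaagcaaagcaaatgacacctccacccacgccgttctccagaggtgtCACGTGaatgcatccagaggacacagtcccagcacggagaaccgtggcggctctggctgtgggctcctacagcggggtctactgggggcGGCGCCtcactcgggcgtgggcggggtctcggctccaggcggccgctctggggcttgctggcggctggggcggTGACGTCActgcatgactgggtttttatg
Mafg, chr11:120633548-120633797, minus strand: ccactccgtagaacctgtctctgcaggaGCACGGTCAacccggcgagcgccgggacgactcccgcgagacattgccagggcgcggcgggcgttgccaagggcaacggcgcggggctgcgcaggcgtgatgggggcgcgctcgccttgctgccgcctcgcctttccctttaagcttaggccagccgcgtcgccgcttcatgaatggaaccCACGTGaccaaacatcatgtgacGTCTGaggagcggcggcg
Mafk, chr5:139791286-139791535, plus strand: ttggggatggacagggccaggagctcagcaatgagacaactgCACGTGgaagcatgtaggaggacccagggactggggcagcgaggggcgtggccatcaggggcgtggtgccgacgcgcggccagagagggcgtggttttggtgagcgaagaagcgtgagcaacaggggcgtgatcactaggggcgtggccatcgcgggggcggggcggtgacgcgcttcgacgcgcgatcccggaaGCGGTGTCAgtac
Junb, chr8:84978749-84978998, minus strand: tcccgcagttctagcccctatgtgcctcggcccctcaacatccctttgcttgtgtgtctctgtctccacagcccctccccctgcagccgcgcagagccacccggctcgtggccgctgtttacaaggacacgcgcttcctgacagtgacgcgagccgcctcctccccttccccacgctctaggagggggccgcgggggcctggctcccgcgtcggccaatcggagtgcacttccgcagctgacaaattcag
The stretch before Maff start 2 held a CRE at positions -29 to -22 relative to the start, a GC-rich Smad site at -102 to -97 and an HRE core on both strands from -191 to -186. That before start 1 held an ARE core at -112 to -104, and that before start 3, not printed, a Smad box. Mafg and Mafk each held an ARE core and an HRE core in both orientations. The palindrome CACGTG, noticed after the letters were seen, thus stood in a window of each of the 3 small Maf genes, that is in 3 of the 11 member windows (27.3%), against 6.02% of 32851 windows of the same length. In the Junb and Jun windows none of the 7 motifs was found. No member window held a TRE or a CArG box, against 4.46% and 1.47% of all windows. The ARE core stood in 27.3% of member windows, against 10.2% of all, the HRE core in 36.4%, against 16.6%, and the CRE in 9.09%, against 1.55%. A GC-rich Smad site stood in 36.4% of member windows, against 9.59% of all, and the Smad box in 18.2%, against 42.2%. Member windows had a median GC content of 64.0%, against 52.4% for all windows, and its part in these shares was not tested. A match is a description of letters and not a binding site, and the arrays do not say which start was used.

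**Figure D1:**
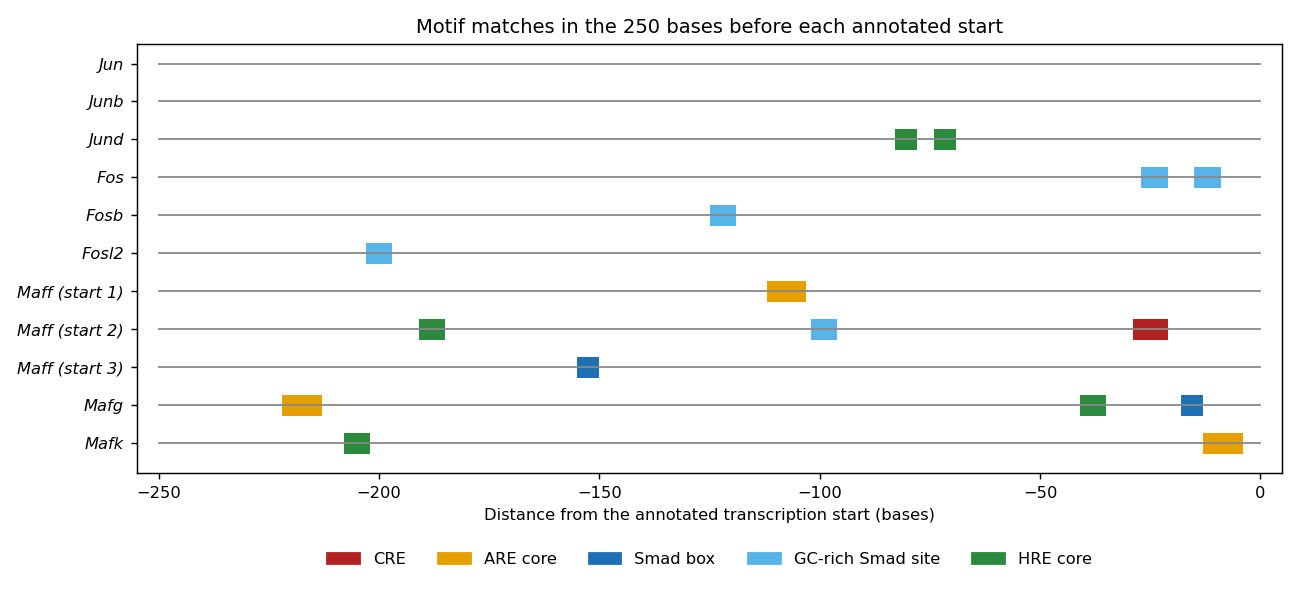
Matches to the motifs in the 250 bases before each of 11 annotated starts, as distance from the start in bases (horizontal axis), with 1 line per start and coloured bars for matches. The Maff starts hold 6 matches in all, Mafg 4 and Mafk 3, with the HRE core counted on each strand, while Jund and Fos hold 2 each, Fosb and Fosl2 1 each, and Jun and Junb none.

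Signals are linear intensities as deposited, and those of different probe sets cannot be set against each other. In place of replicate error, the robust SD of the log2 ratios of probe sets of similar signal is given, which holds both noise and real differences. Endoglin (Eng), the target of the siRNA, had signals of 108.2 with siENG and BMP-2, 298.5 with siCont and BMP-2 and 286.3 with siCont and vehicle in its brighter probe set, and 45.3, 120.5 and 120.6 in its dimmer one, so it was lowest on the array labelled siENG. The siENG array was brighter as a whole, with a 2% trimmed mean of 165.9, against 143.3 with siCont and BMP-2 and 140.7 with siCont and vehicle. Its median log2 ratio over siCont BMP-2 was 0.21 among probe sets past the signal limit. All 18 hybridization control probe sets were brighter on it than with siCont and BMP-2, with a median log2 ratio of 0.2. The cause of the difference in brightness was not tested. A relative log2 ratio has the median of its own comparison taken off, which was 0.01 for BMP-2 over vehicle and 0.22 for siENG with BMP-2 over vehicle. The limit keeps a gene where the higher of the 2 signals compared is at least 23.0, the median of all signals. The 27 control probe sets for Bacillus genes, absent from mouse, reached 13.1, and signals at or below that are treated as background. Of 8 periodontal ligament fibroblast markers listed, 7 had a probe set with a single symbol, Runx2 having none, and 5 passed the limit. Postn, Col1a1, Col1a2 and Col3a1 lay between 2813.6 and 10255.2. Scx, the other marker past the limit, was far dimmer, at 42.3 with siENG and BMP-2, 33.6 with siCont and BMP-2 and 27.3 with vehicle. Dcn stayed at or below 18.0 and Aspn at or below 8.3.

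Maff was the member that stood out under endoglin knockdown. Its signal was 185.4 with siENG and BMP-2, 24.4 with siCont and BMP-2 and 28.0 with siCont and vehicle. The siENG array was high and the 2 siCont arrays were close to each other and low, though above the Bacillus controls. Between the BMP-2-treated arrays, siENG over siCont gave a ratio of 7.6, which is 2.93 as log2 and 2.72 relative, beside a robust SD of 0.42. It ranked 18 of 10854 genes from the top. BMP-2 alone gave a log2 ratio of -0.20, within the robust SD of 0.51. In cell cultures read as bulk RNA, more cells with the transcript and more transcript per cell cannot be told apart.
Mafg and Mafk, whose proteins share the Maff DNA-binding domain and can replace it in dimers, showed no such difference. Mafg had signals of 385.6 with siENG and BMP-2, 388.1 with siCont and BMP-2 and 367.4 with vehicle, and its second probe set had 170.1, 160.2 and 141.9. Mafk had 168.5, 141.5 and 152.3 in the same order. Their relative log2 ratios for siENG over siCont were -0.22 and -0.12 for the Mafg sets and 0.04 for Mafk, and those for BMP-2 over vehicle lay between -0.11 and 0.17. Each lay within the robust SD of probe sets of similar signal (0.17 to 0.39).

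**Figure D2:**
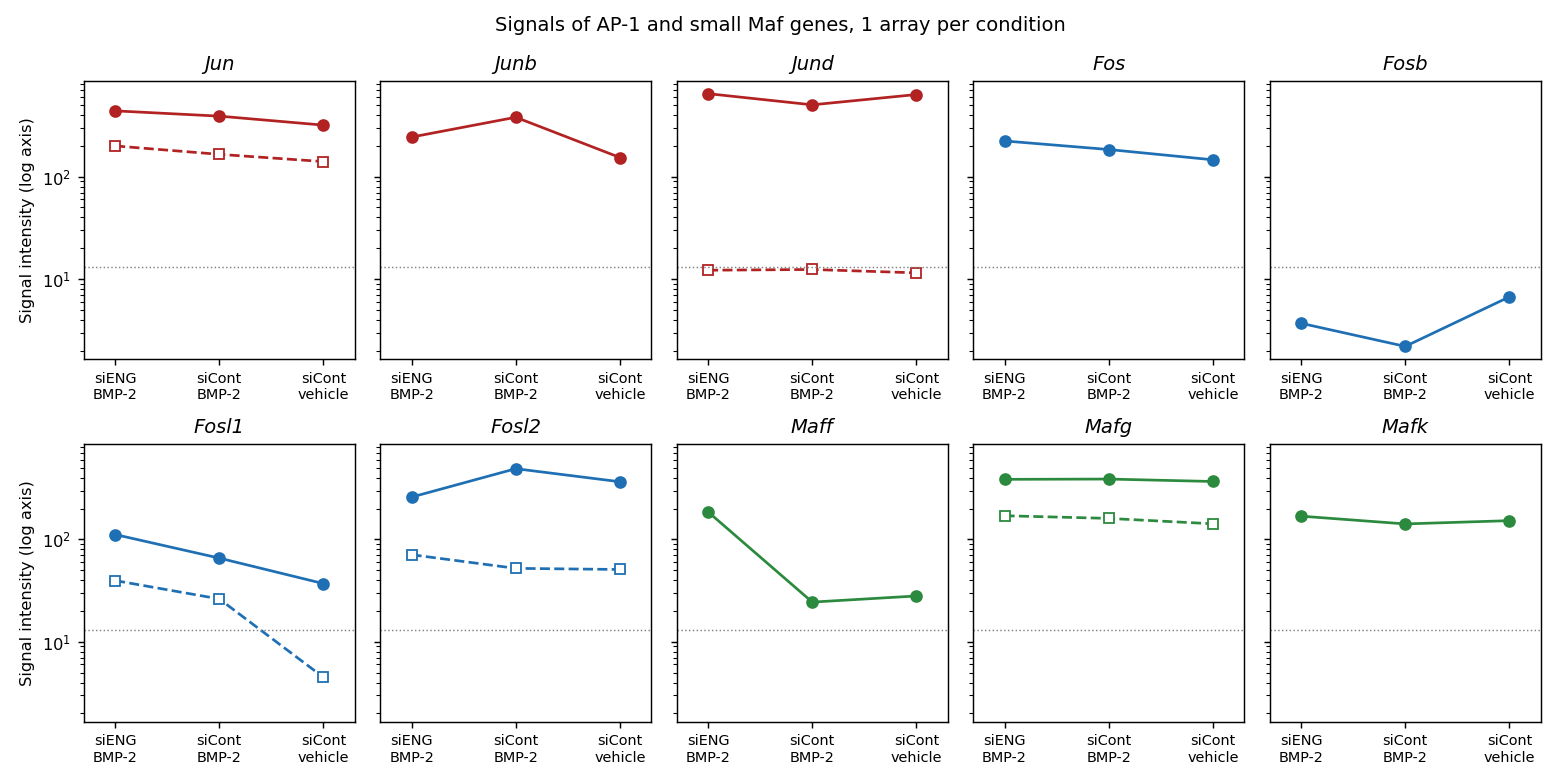
Signal intensity (log axis) of each member on the 3 arrays, with red for Jun, blue for Fos and green for small Maf genes, filled circles and solid lines for the brighter or only probe set and open squares and dashed lines for the dimmer. The dotted line is the highest Bacillus control signal, 13.1. Maff stands high on the siENG array alone (185.4), Junb is highest with siCont and BMP-2 (380.3), and Fosb lies below the line on all arrays.

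Junb had the largest ratio of BMP-2 over vehicle among members past the limit, each gene being read from its brighter probe set. Its signal was 243.6 with siENG and BMP-2, 380.3 with siCont and BMP-2 and 153.8 with siCont and vehicle, so that the siENG array lay between the others. In siCont cells BMP-2 over vehicle gave 2.47 (log2 1.31), with a robust SD of 0.19 at that signal, and ranked 101 of 10810 genes, or 15 of 6723 when the limit was raised to 152.0, the 75th percentile of all signals. Under knockdown the log2 ratio over siCont BMP-2 was -0.64 (-0.85 relative), with a robust SD of 0.33. The siENG array was still above vehicle for Junb, with a log2 ratio of 0.66 (0.44 relative) and a robust SD of 0.35. The first and second of these ratios share the siCont BMP-2 array, and an error in that signal would move them in opposite directions. Junb has a single probe set on the array.
Jun, the founding member, differed less. Its brighter probe set had signals of 439.1 with siENG and BMP-2, 390.0 with siCont and BMP-2 and 318.7 with vehicle, and its dimmer one 199.6, 165.2 and 140.4. Both sets were highest on the siENG array and lowest with vehicle. For BMP-2 over vehicle the log2 ratios were 0.29 and 0.23, at robust SDs of 0.17 and 0.21, and for siENG over siCont the relative values were -0.04 and 0.06. Jund had signals of 646.3 with siENG and BMP-2, 502.9 with siCont and BMP-2 and 633.9 with vehicle. It was thus the only Jun gene that was lower with BMP-2 than with vehicle in siCont cells (log2 ratio -0.33, robust SD 0.15). That held before scaling and under each of 4 scalings tried. On the siENG array Jund had a log2 ratio over vehicle of 0.03 as deposited and -0.19 relative (robust SD 0.28). For siENG over siCont its log2 ratio was 0.36 (0.15 relative, robust SD 0.27). Its second probe set read 12.2, 12.4 and 11.5, within the range of the Bacillus controls, and measures no difference.

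Fosl2 was the lowest member under knockdown by its brighter probe set, and its 2 probe sets disagreed. The brighter had signals of 258.7 with siENG and BMP-2, 489.9 with siCont and BMP-2 and 365.2 with siCont and vehicle. The siENG array was the lowest of the 3, below vehicle, with a log2 ratio over siCont BMP-2 of -0.92 (-1.13 relative) at a robust SD of 0.30, which ranked 217 from the bottom of 10854 genes and 35 from the bottom of 7128 at the higher limit. The dimmer set had 70.8, 52.1 and 50.8 in the same order, highest on the siENG array, with a relative log2 ratio of 0.23 at a robust SD of 0.42. With BMP-2 over vehicle the sets gave log2 ratios of 0.42 and 0.04. The transcript regions read by the 2 sets were not analysed here, so the direction for Fosl2 as a gene under knockdown is not settled.
Fosl1, which is induced in growing and migrating cells, was in its brighter set at 111.5 with siENG and BMP-2, 65.6 with siCont and BMP-2 and 37.0 with vehicle. The dimmer set kept that order of arrays, with 39.6, 26.2 and 4.5. Between BMP-2 and vehicle the ratio was 1.77 (log2 0.83, robust SD 0.34) in the brighter set, and in the dimmer one, whose vehicle signal lies within the Bacillus range, siCont BMP-2 was at least 2.0-fold higher. For siENG over siCont the relative log2 ratio was 0.56 in the brighter set and 0.39 in the dimmer (robust SD 0.40 and 0.49). Between the siENG array and vehicle, which differ in both the siRNA and BMP-2, the brighter set had a ratio of 3.01 (2.59 relative), and the dimmer was at least 3.02-fold higher, each bound being set against the highest Bacillus signal.
Fos had signals of 223.2 with siENG and BMP-2, 184.1 with siCont and BMP-2 and 146.1 with vehicle. On the log2 scale BMP-2 was above vehicle by 0.33 (robust SD 0.21), and siENG over siCont gave 0.07 relative (robust SD 0.34). Fosb was read at 3.7, 2.2 and 6.7 by its only probe set, none above the Bacillus controls, and no ratio is given for it.

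**Figure D3:**
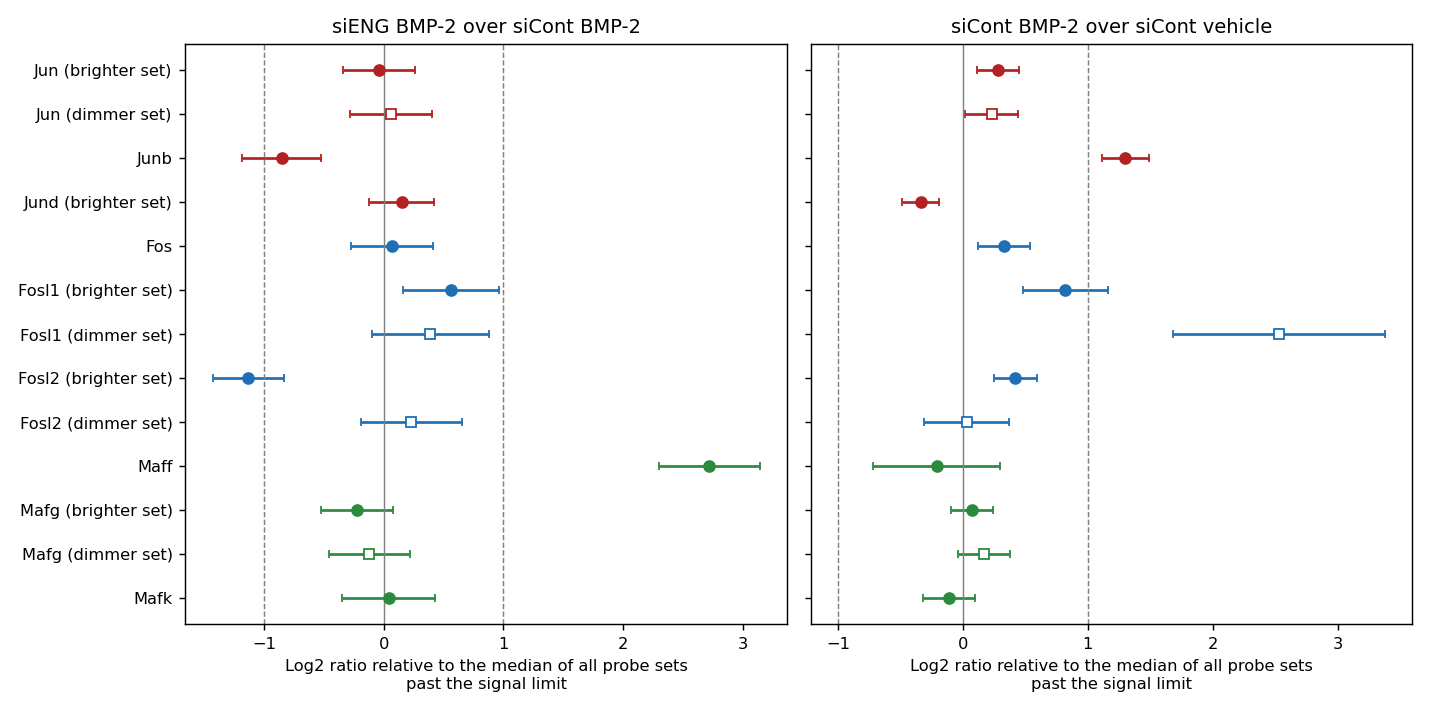
Log2 ratio of each probe set relative to the median of all probe sets past the signal limit (horizontal axis). The left side is siENG over siCont with BMP-2 and the right side BMP-2 over vehicle in siCont cells. Probe sets at background on all 3 arrays are left out. Bars are the robust SD of probe sets of similar signal, not replicate error, filled circles are the brighter or only set and open squares the dimmer, and dashed lines mark ratios of 2 and 0.5. Maff lies at 2.72 on the left and Junb at 1.30 on the right, and the 2 sets of Fosl2 lie on opposite sides of 0 on the left. The dimmer Fosl1 set lies at 2.53 on the right, a value that rests on a vehicle signal of 4.5, at background.

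Over the family, 9 of the 10 members passed the signal limit in each comparison, Fosb being the exception. For siENG over siCont with BMP-2, 1 member (Maff) had a ratio of 2 or more, where 4.04% of the 10854 genes kept did, and 0 had a ratio of 0.5 or less, where 1.66% did. Relative to all probe sets the counts were 1 (Maff) against 2.32% of genes and 1 (Fosl2) against 2.7%, and the share of the differing genes that were higher was 46.2%, against 70.9% as deposited. The median log2 ratio of the 9 was 0.25, beside 0.24 over all genes kept, so the family as a whole lay with the other genes and its members ran from -0.92 to 2.93. For BMP-2 over vehicle, 1 member (Junb) had a ratio of 2 or more, where 1.8% of 10810 genes did, and 0 had a ratio of 0.5 or less, where 1.57% did. The median log2 ratio was 0.29, beside 0.01 over all genes, with 6 members above 0 and 3 below, where 51.6% of genes were above. For siENG with BMP-2 over siCont with vehicle, 2 members (Maff and Fosl1) had a ratio of 2 or more both before and after the median was taken off, where 3.99% and 2.25% of 10847 genes did, and 0 had a ratio of 0.5 or less, where 1.73% and 2.85% did. Maff and Junb were picked for these ratios, so nothing is read from the counts that hold them.

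**Figure D4:**
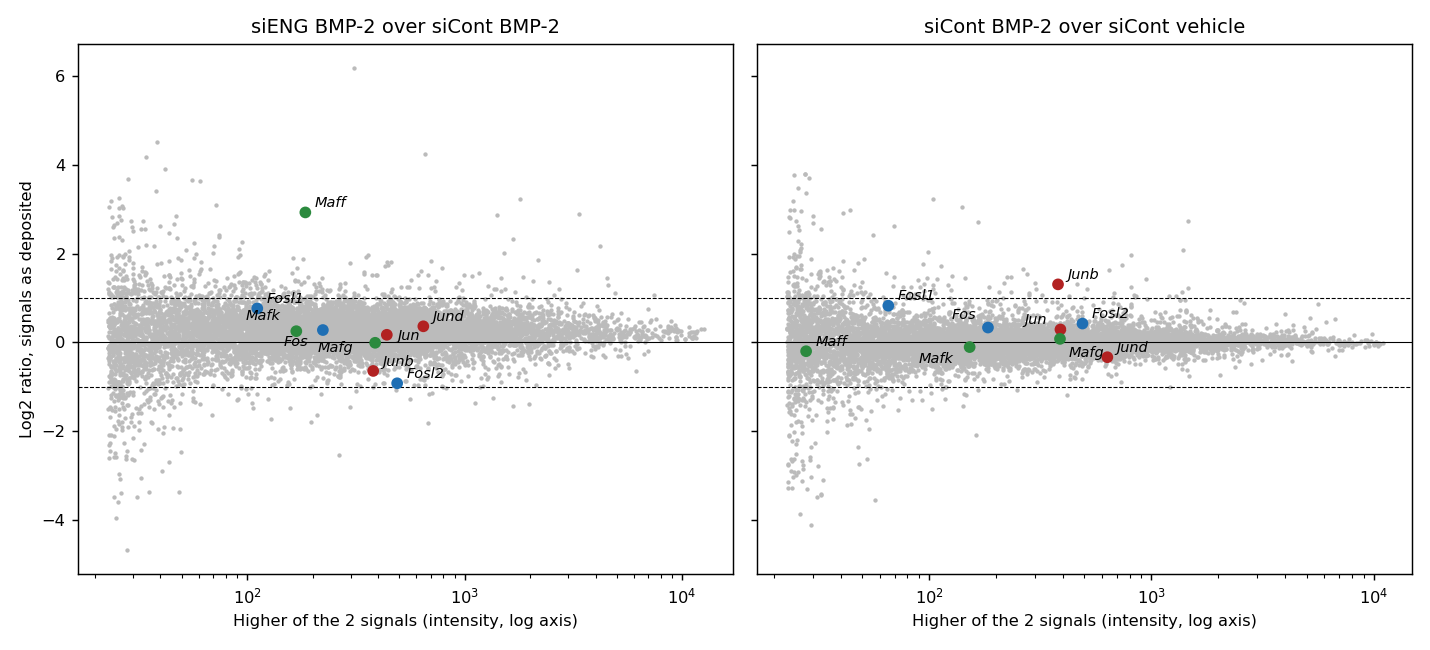
Log2 ratio of signals as deposited (vertical axis) by the brighter signal of the pair (horizontal log axis, intensity), with 1 grey point per gene past the limit and members in red (Jun), blue (Fos) and green (small Maf). Dashed lines mark ratios of 2 and 0.5. On the left Maff lies at 2.93, ranked 18 from the top of 10854 genes, and Fosl2 at -0.92, ranked 217 from the bottom. On the right Junb lies at 1.31, ranked 101 from the top of 10810 genes. Other genes thus lie beyond each of them.

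The genes whose 3 signals were most like those of Maff were found by the distance between their log2 ratios of siENG over siCont and of BMP-2 over vehicle, among 7180 genes with a signal of at least 152.0 on an array. The 5 nearest were Bnip3, a mitophagy receptor (distance 0.21), Ero1a, an oxidase of the endoplasmic reticulum (0.32), Bst2, which tethers virus particles (0.58), Ndrg1, a stress-responsive growth regulator (0.65), and Fam162a, a mitochondrial protein (0.81). Bnip3 had signals of 3341.5 with siENG and BMP-2, 450.3 with siCont and BMP-2 and 594.6 with vehicle. The nearest to Junb were Cxxc5, a zinc finger protein (0.08), the Wnt receptor Fzd7 (0.11), the ligand Wnt4 (0.15), the netrin receptor Unc5b (0.16) and the lubricating proteoglycan Prg4 (0.22). Cxxc5 had signals of 122.7, 186.0 and 78.7 in the same order. That these genes share the order of arrays with Junb or Maff was set by the search, which took the nearest ratios. Likeness over 3 arrays rests on 2 ratios and a common array.

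Of 106 genes in 8 related lists, 96 had a probe set with a single symbol and 81 passed the limit in each main comparison. For siENG over siCont with BMP-2, 8 of the 81 reached a ratio of 2 and 2 lay at or under 0.5 (6 and 2 relative to all probe sets), with a median log2 ratio of 0.26. Over all genes kept the shares were 4.04% and 1.66% (2.32% and 2.7% relative) and the median 0.24, and the counts of each list below are to be read beside these shares. For BMP-2 over vehicle the counts were 4 and 2 and the median 0.03, where 1.8% and 1.57% of all genes passed and their median was 0.01. Among 8 partners of Jun and Fos kept, 1 reached 2 under knockdown and 0 passed either ratio with BMP-2. That gene, Atf3, a stress-induced repressor, had signals of 78.3 with siENG and BMP-2, 33.2 with siCont and BMP-2 and 39.1 with vehicle, and Atf5 and Atf4 had relative log2 ratios of 0.68 and 0.46 under knockdown. Jdp2, a repressor that pairs with Jun, lay the other way at -0.27 (robust SD 0.27), with a log2 ratio of 0.40 for BMP-2 over vehicle (robust SD 0.15). Of 5 CNC, Bach and large Maf factors kept, 1 reached 2 under knockdown and 0 passed either ratio with BMP-2. It was the repressor Bach2, with signals of 94.7, 38.9 and 50.9 in that order, while Nrf2 (Nfe2l2) had a relative log2 ratio of 0.29, Nfe2l1 of -0.15 and the large Maf factor Maf of -0.36. Atf3 and Bach2 were high on the array on which Maff was high. They were named for large ratios and Maff was picked for its signal on that array, so nothing is read from this.
Of 11 genes kept that carry antioxidant or Maf recognition elements, 0 had a ratio of 2 or more or of 0.5 or less in either main comparison, and they lay on both sides of 0 under knockdown. Hmox1, the haem oxygenase repressed by Bach1 with small Maf, had a relative log2 ratio of 0.45, while the glutathione synthesis genes Gclm and Gclc stood at -0.63 and -0.54 and thioredoxin reductase Txnrd1 at -0.60. Genes known to respond to AP-1 had a relative median of -0.24 under knockdown over 11 genes kept, with 1 at 2 or more and 2 at 0.5 or less, and 1 at 2 or more with BMP-2 (Ptgs2). Il6 (56.7 with siENG and BMP-2, 197.4 with siCont and BMP-2, 199.0 with vehicle) and Ptgs2 (194.2, 679.0 and 316.2) were at 0.5 or less, and the growth factor Ereg (83.7, 34.8 and 25.1) was at 2 or more. Cyclin D1 (Ccnd1) had 594.0, 302.3 and 340.5, a relative log2 ratio of 0.76 under knockdown. The matrix genes Mmp3, Mmp9 and Mmp13 did not pass the limit.
Of 17 other immediate-early genes kept, 3 reached 2 under knockdown, and 1 reached 2 and 1 lay at or under 0.5 with BMP-2. Klf2 had signals of 166.7 with siENG and BMP-2, 64.0 with siCont and BMP-2 and 144.1 with vehicle, Ier3 722.2, 304.8 and 326.7, and Egr1 1319.1, 629.8 and 551.6, a ratio of 2 or more for siENG over siCont in each as deposited, though Egr1 was under 2 relative to all probe sets (log2 0.86). Klf2 was also at 0.5 or less for BMP-2 over vehicle. Others lay lower under knockdown. Egr3 had signals of 38.5 with siENG and BMP-2, 62.8 with siCont and BMP-2 and 63.0 with vehicle, a relative log2 ratio of -0.92 (robust SD 0.42). The orphan receptor Nr4a2 had 17.3, 29.5 and 10.2, a relative log2 ratio of -0.98 (robust SD 0.56), and with BMP-2 it was at least 2.25-fold higher than with vehicle, where its signal lay within the Bacillus range. Of 9 dual-specificity phosphatases kept, 0 passed either ratio under knockdown and 2 reached 2 with BMP-2. These were Dusp4 and Dusp5, which inactivate MAP kinases, and had signals of 85.3 and 89.1 with BMP-2, against 42.4 and 42.7 with vehicle. Under knockdown Dusp5 had a relative log2 ratio of 0.61 and Dusp6 of -0.48. SRF and its cofactors held 0 genes past either ratio in both main comparisons. Among 14 MAP kinases and their kinases kept, 2 were at 2 or more under knockdown and 1 at 0.5 or less with BMP-2. Mapk7 reached 2 only as deposited (log2 1.01, 0.80 relative). Map3k1 was counted in both comparisons through a siCont BMP-2 signal of 11.4, within the Bacillus range. With 13.1 in its place the ratio under knockdown was 2.07 as deposited (log2 0.84 relative) and that of BMP-2 over vehicle was 0.51, past neither limit after the median was taken off. Of 6 leukocyte markers 3 passed the limit, with a relative median log2 ratio of 0.39 under knockdown. Cd68 was high on the array on which Maff was high (117.6 with siENG and BMP-2, 50.0 with siCont and BMP-2, 71.0 with vehicle). Csf1r had 47.7, 31.4 and 40.6 in the same order, and Lyz2 36.3, 25.9 and 11.5, both also highest with siENG. Their relative log2 ratios under knockdown were 0.39 and 0.28, within robust SDs of 0.49 and 0.56. Adgre1 (10.3, 15.1 and 13.6) did not pass the limit. Ptprc and Itgam were at or below 8.1, within the Bacillus range, on every array.

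**Figure D5:**
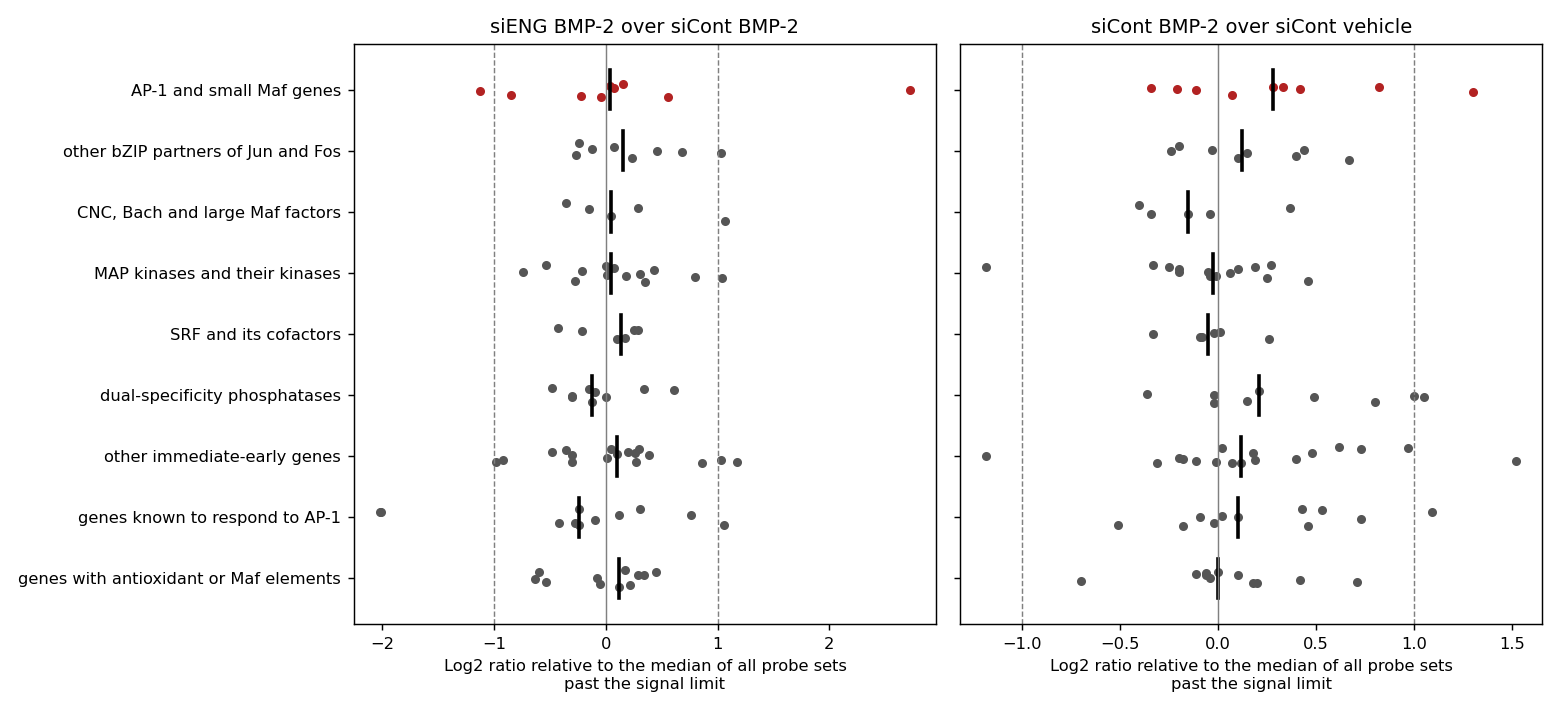
Log2 ratio relative to the median of all probe sets past the signal limit (horizontal axis) for each gene kept of the members (red) and of 8 related lists (grey), with a black bar at each list's median, for siENG over siCont with BMP-2 (left) and BMP-2 over vehicle (right). Dashed lines mark ratios of 2 and 0.5, and vertical scatter within a row carries no value. Maff lies farthest right on the left side, where Il6 and Ptgs2 lie farthest left.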

How the data were processed

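RNA of PDL-L2 cells was read on 3 Affymetrix mouse expression arrays, 1 for each condition. The values deposited are intensities on a linear scale, with 1 for every probe set. GCOS 1.4 appears in the submitters' processing notes, and how it computed or scaled signals is not stated in the sources used here. Groups follow the sample titles. Signals listed at 0 (1 and 3 probe sets on the siCont arrays) were set to 0.1, and 64 control probe sets were left out. Symbols came from the platform annotation, updated by gene identifier through the RefSeq table of GRCm38.p6, with 34958 probe sets giving 1 symbol, 932 several and 9211 none. A gene was read from its probe set of highest mean log2 signal, and all sets of the members are reported. Log2 ratios were computed from the deposited intensities, with the robust SD (1.4826 times the median absolute deviation) in 20 bins of mean log2 signal. With 1 array per condition no test was run, and the number of arrays limits the precision. Simulated arrays with known log2 changes checked only the arithmetic of ratios and spread, not the signal limit, the choice of probe set or the counts.

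The members and lists were chosen with earlier results of these data known. Named genes are all members, Eng, up to 4 genes of each list with the largest absolute relative log2 ratio per main comparison, and the 5 genes nearest to Maff and to Junb. Egr1 and the cell markers were added after their values were seen, not all genes of the rule are printed, and the motif CACGTG was added after the sequences were seen. The alternatives were 2 other signal limits, a floor, 4 scalings and the mean over probe sets, to which 1 with background signals set to the highest Bacillus control was added after the data were seen. Python 3.11.15, numpy 2.4.6, pandas 2.3.3, scipy 1.17.1, statsmodels 0.14.6 and matplotlib 3.10.9 were used.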

Additional observations from a re-analysis of the deposited data

How the results depend on the processing

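Of the 162 values of single member genes under 6 alternatives, 156 moved by less than the robust SD at that signal, 6 moved by more, all with the mean over probe sets, and 0 of the ratios past 2 or 0.5 changed sign. The 6 were ratios of Fosl2, Fosl1 and Jund, and for Fosl2 under knockdown the mean over its 2 sets was -0.24. The count of members at a ratio of 0.5 or less under knockdown, 0 as deposited, was 1 (Fosl2) with median centring, with the 2% trimmed mean scaling, with quantile normalization and with lowess centring. For BMP-2 over vehicle, the mean over probe sets gave 2 members at a ratio of 2 or more in place of 1, adding Fosl1 (log2 1.68) through the background vehicle signal of its dimmer set. With such signals set to 13.1, an alternative chosen after seeing the data, Fosl1 had 0.91 and the count was 1. Dropping the signal limit gave 1 at 0.5 or less in place of 0, Fosb, at background. For siENG with BMP-2 over vehicle, the limit at the 75th percentile left 1 member at 2 or more in place of 2, since Fosl1 did not pass it. Over all genes, the counts at 2 or more and at 0.5 or less under knockdown (438 and 180) were 2160 and 1906 with no limit, 125 and 20 with the higher limit, 270 and 45 with the floor, and 252 and 293 with median centring. For BMP-2 over vehicle (195 and 170) they were 1825 and 1883, 34 and 5, 78 and 43, and 192 and 172. Quantile normalization gave 289 and 247 under knockdown and lowess centring 248 and 287, and the mean over probe sets gave 285 and 291 for BMP-2. For siENG with BMP-2 over vehicle (433 and 188) the counts were 2104 and 1990 with no limit, 158 and 28 with the higher limit, 290 and 55 with the floor, and 244 and 309 with median centring. No paired analysis was possible because each condition has 1 array.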
